A study of Homo sapiens with 6 samples.

Results

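The expression of 10 genes of the cyclic AMP (cAMP) system was followed through 6 RNA-seq libraries of MDA-MB-231 cells, a line grown from a human breast tumour of the triple-negative type. They are 5 phosphodiesterase genes (PDE4A, PDE4B, PDE4D, PDE7A and PDE8A) and 5 genes of protein kinase A, or PKA (PRKACA, PRKACB, PRKAR1A, PRKAR2A and PRKAR2B). All 10 were found by gene name among the 20260 complete rows of the deposited gene table. The ABI2 OE group held 3 libraries from cells transfected with a plasmid carrying ABI2, an adaptor of the actin-regulating WAVE complex, and the Control group held 3 libraries from cells given the empty vector. Both groups are the same line, both were transfected, and the labels give neither the promoter of the plasmid nor the time of harvest. The labels do not state whether replicates came from separate cultures, so standard errors and p-values measure sample-to-sample spread that could be purely technical. The 10 genes were listed with results of this contrast in view, so their own differences between the groups are given as a description, without a test.

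Adenylyl cyclases make cAMP when receptors activate the stimulatory G protein. PKA at rest is a complex of paired regulatory subunits that hold paired catalytic subunits inactive, and cAMP bound to the regulatory subunits frees the catalytic ones, which phosphorylate substrates such as the transcription factor CREB. Phosphodiesterases end the signal by hydrolysing cAMP. The PDE4, PDE7 and PDE8 families are specific for cAMP, and PDE4 enzymes are the targets of rolipram and roflumilast. Type II regulatory subunits (PRKAR2A, PRKAR2B) are mostly tethered by A-kinase anchoring proteins, while the type I subunit PRKAR1A is more often free in the cytosol.

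Related members differ in base composition even where they encode the same protein sequence, and base composition went with the differences between the groups (given below). To show their difference in base composition, aligned coding stretches from the GENCODE transcripts (GRCh38) are printed for pairs of members. These are the catalytic pair PRKACB and PRKACA and the phosphodiesterase pair PDE4D and PDE4A. Each stretch lies within the longest run of codons for the same residues. Capitals mark bases that differ within a pair. The PRKACB stretch is coding bases 673 to 822, in exons 6 to 8 of its transcript (chr1:84196728-84202721, plus strand), and the PRKACA stretch is coding bases 532 to 681, also in exons 6 to 8 (chr19:14097445-14097778, minus strand).
PRKACB: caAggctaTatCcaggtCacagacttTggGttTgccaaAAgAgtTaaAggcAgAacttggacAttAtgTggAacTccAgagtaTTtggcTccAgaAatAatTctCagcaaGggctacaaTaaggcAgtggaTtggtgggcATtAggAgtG
PRKACA: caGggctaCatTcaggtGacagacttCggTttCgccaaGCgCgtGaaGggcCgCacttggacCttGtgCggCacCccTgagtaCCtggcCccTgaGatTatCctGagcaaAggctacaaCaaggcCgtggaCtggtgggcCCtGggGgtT
Of these 150 bases, 37 differed, 33 of them at the third codon position, and the GC content was 44.7% in PRKACB and 60.7% in PRKACA. Over all 304 codons found to match in runs of at least 3, GC content at the third codon position was 39.5% in PRKACB and 73.7% in PRKACA. The PDE4D stretch is coding bases 1741 to 1836, in exons 13 and 14 (chr5:58975834-58976439, minus strand), and the PDE4A stretch is coding bases 1654 to 1749, in exons 13 and 14 of its own transcript (chr19:10461910-10463798, plus strand).
PDE4D: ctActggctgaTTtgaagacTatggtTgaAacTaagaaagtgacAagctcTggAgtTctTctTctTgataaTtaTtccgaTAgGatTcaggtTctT
PDE4A: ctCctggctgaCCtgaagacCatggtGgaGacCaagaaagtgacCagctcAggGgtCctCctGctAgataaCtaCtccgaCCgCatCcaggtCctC
Here 22 of 96 bases differed, 20 of them at the third codon position, and the GC content was 37.5% in PDE4D and 57.3% in PDE4A. Over all 447 matching codons of this pair, GC content at the third codon position was 49.9% in PDE4D and 81.9% in PDE4A, so the printed PDE4D stretch is poorer in GC than the rest of its matching codons. Without GC correction, the member of each pair with less GC in its matching codons was called lower in ABI2 OE libraries. The other member was called higher. Both pairs come from the list made with this contrast in view. Together they hold the 2 members called higher, so this is a description and no test.

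Promoter windows were searched for the full cAMP response element TGACGTCA, which reads the same on both strands and is bound by CREB. The RefSeq table (GRCh38.p14) held 36 windows for 9 of the 10 members, each with 250 bases before and 50 after a transcript start, and none for PDE7A. The element was present in 3 windows, 1 of PDE4A and 2 overlapping ones of PRKAR1A that hold the same copy, against 1.85% of all 35116 windows. A window of each gene is shown because these were the member genes with the element, which the capitals mark.
PRKAR1A, chr17:68512180-68512479, plus strand: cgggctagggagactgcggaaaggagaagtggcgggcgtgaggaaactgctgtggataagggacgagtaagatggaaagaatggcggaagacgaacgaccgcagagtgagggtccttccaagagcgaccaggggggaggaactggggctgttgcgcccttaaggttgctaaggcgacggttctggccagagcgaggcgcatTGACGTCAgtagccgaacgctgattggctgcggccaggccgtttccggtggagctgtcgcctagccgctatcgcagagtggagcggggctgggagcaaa
PDE4A, chr19:10416523-10416822, plus strand: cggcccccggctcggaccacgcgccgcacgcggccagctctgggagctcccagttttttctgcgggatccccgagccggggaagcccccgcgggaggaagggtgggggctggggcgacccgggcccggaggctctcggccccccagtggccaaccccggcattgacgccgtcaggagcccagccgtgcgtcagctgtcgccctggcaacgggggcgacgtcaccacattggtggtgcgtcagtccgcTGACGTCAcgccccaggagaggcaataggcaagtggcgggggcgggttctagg
The element began at base 202 of the PRKAR1A window and at base 248 of the PDE4A window, which places the second across the annotated start. The core TGACG or its reverse complement CGTCA, which is contained in the full one, occurred in 9 of the 36 windows, or 25%, against 24.6% of all windows. By gene it was present in 6 of 9 members, against 28.4% of all genes. The members had from 1 window (PRKAR2A and PRKAR2B) to 8 windows (PDE4D), and a gene with more windows has more room for a match. Such matches are letters in a window and are not evidence of binding. PRKAR1A and PDE4A differed in opposite directions between the groups without GC correction (log2 fold changes of -0.61 and 0.76), but both were positive with it (1.01 and 0.23, the second not called).

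Total counts were 39243211 to 40241508 in ABI2 OE libraries and 38453152 to 40309690 in Control libraries. ABI2 itself was at 222 ± 2.27 CPM (counts scaled to a common library size, with TMM factors) in ABI2 OE and 82.5 ± 1.2 CPM in Control libraries (SD, n = 3 each). Of 15 marker genes read, PGR, CDH1 and the leukocyte marker PTPRC were at 0 in all 6 libraries and the oestrogen receptor gene ESR1 was at most 0.0465 TPM (a level per transcript length that sums to the same total in each library). Vimentin (VIM) was at 3238 to 3376 TPM in ABI2 OE and 2915 to 2986 TPM in Control libraries. ERBB2, the HER2 receptor gene, was not absent, at 43.1 to 47.4 TPM in ABI2 OE and 27.0 to 32.3 TPM in Control libraries. The epithelial keratin genes KRT8 and KRT18 were at 341 to 489 TPM in ABI2 OE and 194 to 282 TPM in Control libraries. The mesenchymal marker CAV1 was at 37.0 to 50.2 TPM in ABI2 OE and 90.5 to 96.8 TPM in Control libraries. AXL, of the same mesenchymal list, went the other way, at 334 to 345 TPM in ABI2 OE and 217 to 242 TPM in Control libraries. The groups overlapped for the mesenchymal markers SNAI2 and CD44 and for the epithelial gene EPCAM. The part of these marker differences in the members' values was not tested. GC content averaged over counts was 53.7% to 54.1% in ABI2 OE libraries and 50.8% to 51.3% in Control libraries. It was taken from a single annotated transcript per gene and not from the reads. Across the whole table, fold changes followed transcript GC content. Each member is therefore given with its value in a fit that corrects for this trend. In bulk RNA, fewer cells that express a gene and less of its RNA per cell cannot be told apart.

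In the ABI2 OE libraries 7 members were lower and 2 were higher by the edgeR call over all genes (adjusted p below 0.05), and PRKAR2A did not reach that call. Among the 13325 genes tested, 73.1% were called, 35.1% as higher and 38% as lower. The median log2 fold change was -1.18 over the 10 members and -0.01 over all genes tested. In 10 of 10 members the CPM ranges of the groups were separate, as they were in 77.9% of all genes tested. Because the list was chosen on this contrast, nothing is read from these counts. With GC correction, PRKAR1A and PRKAR2A were called higher and PDE4D and PDE7A lower, 6 members were not called, and the median was -0.15, while 51.2% of all genes were called, 28.6% as higher and 22.6% as lower. The count of 2 higher members is thus the same in both fits, but the genes are different.

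**Figure D1:**
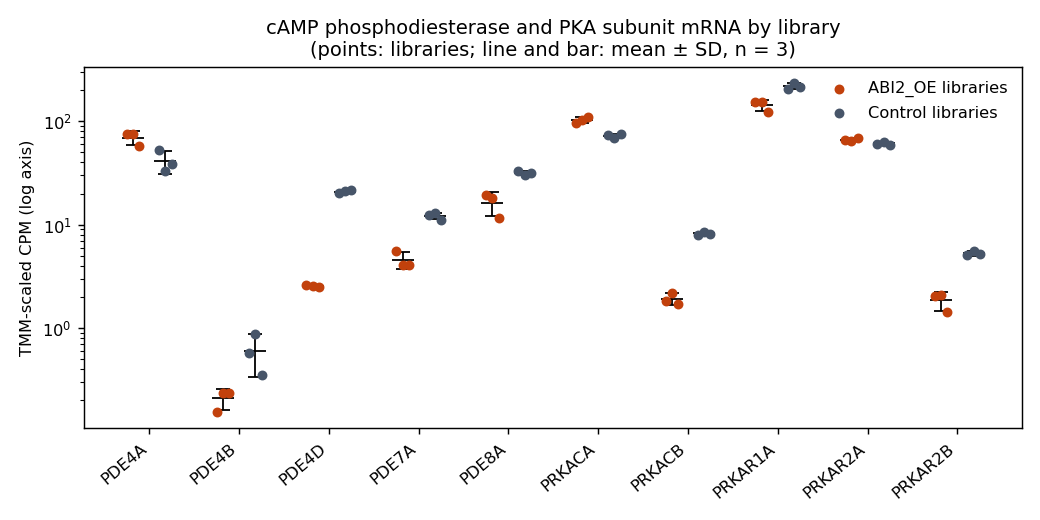
CPM of each member on a log axis, with 1 point per library, ABI2 OE left of Control, and the mean ± SD (n = 3) as line and bar. PDE4D separates the groups most, at 2.47 to 2.60 CPM in ABI2 OE and 20.2 to 21.5 CPM in Control libraries, while PRKAR2A differs least.

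PDE4D showed the largest difference of the members. This gene (ENSG00000113448, chromosome 5, 58969038 to 60488076, minus strand, GRCh38) encodes a PDE4 with many long and short isoforms that shape local cAMP pools. It had 101, 97 and 94 counts in ABI2 OE libraries against 851, 855 and 859 in Control libraries. In CPM these were 2.60, 2.55 and 2.47 in ABI2 OE and 20.2, 21.0 and 21.5 in Control libraries. Libraries within each group were nearly level, and the groups lay far apart. The log2 fold change was -3.04 ± 0.09 (SE), and -1.52 ± 0.10 with GC correction. PDE4D was 8.22-fold higher in Control libraries.

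PDE4A was the phosphodiesterase that was higher with ABI2. It (ENSG00000065989, chromosome 19, 10416773 to 10469631, plus strand) encodes another rolipram-sensitive PDE4. The ABI2 OE libraries had 75.1, 75.9 and 58.2 CPM, against 52.3, 32.9 and 38.3 CPM in Control libraries. ABI2 OE replicate 3 was the lowest of its group and Control replicate 1 the highest of its own, so the gap between the groups was narrow. The log2 fold change was 0.76 ± 0.19 (SE) and became 0.23 ± 0.20 with GC correction. PDE4A overlaps CDC37, a chaperone gene on the opposite strand, over 3349 bases. CDC37 was at 647 ± 39.96 CPM in ABI2 OE and 393 ± 9.48 CPM in Control libraries (SD, n = 3 each), and with no strand setting given, its reads and those of PDE4A cannot be told apart in that stretch.

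PDE4B, the PDE4 known for its role in inflammatory cells, was near the limit of detection. It (ENSG00000184588, chromosome 1, 65792514 to 66374579) had 6, 9 and 9 counts in ABI2 OE libraries and 24, 36 and 14 counts in Control libraries. These are 0.15, 0.24 and 0.24 CPM in ABI2 OE and 0.57, 0.88 and 0.35 CPM in Control libraries. The log2 fold change of -1.51 ± 0.44 (SE) rests on these few reads and was -0.73 with GC correction. Without Control replicate 2 it was -1.12 and without ABI2 OE replicate 1 it was -1.33, and in both cases PDE4B lost its call. PDE4C, the remaining PDE4 gene and no member, was chosen after its values were seen and did not pass (log2 fold change -0.44 ± 0.45). It had at most 13 counts in any library, at means of 0.21 CPM in ABI2 OE and 0.28 CPM in Control libraries, so the missing call says little.

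PDE7A and PDE8A, which encode rolipram-insensitive enzymes, were both lower. PDE7A (ENSG00000205268, chromosome 8, 65717510 to 65841952, minus strand) had 5.58, 4.10 and 4.05 CPM in ABI2 OE and 12.5, 12.9 and 11.2 CPM in Control libraries. Every ABI2 OE library was below every Control library by a wide margin. Its log2 fold change was -1.41 ± 0.15 (SE), and -0.63 ± 0.11 with GC correction. PDE7A overlaps MTFR1 on the opposite strand over 53752 bases of the gene spans. With no strand setting given, their reads cannot be told apart there. MTFR1 was at 22.6 ± 0.58 CPM in ABI2 OE and 33.8 ± 1.37 CPM in Control libraries (SD, n = 3 each). PDE8A (ENSG00000073417, chromosome 15, 84980440 to 85139145, plus strand), whose enzyme has a very high affinity for cAMP, had 19.4, 18.2 and 11.5 CPM in ABI2 OE and 33.1, 29.97 and 31.7 CPM in Control libraries. ABI2 OE replicate 3 was below the rest of its group. The log2 fold change of PDE8A was -0.95 ± 0.19 (SE), -0.74 without that library and -0.27 ± 0.15 with GC correction.

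The catalytic subunits of PKA differed in opposite directions. PRKACA (ENSG00000072062, chromosome 19, 14091688 to 14118084, minus strand), the main catalytic subunit gene here, had 97.4, 103 and 111 CPM in ABI2 OE and 74.0, 69.4 and 75.5 CPM in Control libraries. PRKACB (ENSG00000142875, chromosome 1, 84078062 to 84238498, plus strand), the gene for the beta subunit, had 1.83, 2.21 and 1.71 CPM in ABI2 OE and 7.97, 8.59 and 8.19 CPM in Control libraries. Both genes separated the groups without overlap. The log2 fold change was 0.51 ± 0.07 for PRKACA and -2.11 ± 0.14 for PRKACB (SE). With GC correction they were 0.04 ± 0.05 and -0.28 ± 0.13, and neither was called.

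Among the regulatory subunits, PRKAR1A and PRKAR2B were lower and PRKAR2A was nearly level. PRKAR1A (ENSG00000108946, chromosome 17, 68511780 to 68551319, plus strand) encodes the type I subunit whose loss causes Carney complex. It had 155, 153 and 122 CPM in ABI2 OE and 207, 235 and 216 CPM in Control libraries. ABI2 OE replicate 3 was again the lowest. Its log2 fold change was -0.61 ± 0.10 (SE) and turned to 1.01 ± 0.07 with GC correction, so the direction of PRKAR1A depends on that correction. The overlapping gene FAM20A had 2 to 13 counts per library.

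PRKAR2A (ENSG00000114302, chromosome 3, 48744597 to 48847846, minus strand), the widely expressed type II subunit, had 66.4, 64.7 and 68.7 CPM in ABI2 OE and 60.9, 63.2 and 59.4 CPM in Control libraries. The groups did not overlap, but by a small margin. Its log2 fold change was 0.12 ± 0.06 (SE), -0.01 on the log2(TPM + 1) scale and 0.78 ± 0.08 with GC correction. PRKAR2B (ENSG00000005249, chromosome 7, 107044649 to 107161811, plus strand), the type II subunit of nerve and fat tissue, had 2.03, 2.1 and 1.42 CPM in ABI2 OE and 5.04, 5.57 and 5.18 CPM in Control libraries. All ABI2 OE values were under all Control values. The log2 fold change of PRKAR2B was -1.51 ± 0.18 (SE) and -0.03 ± 0.14 with GC correction.

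Levels per transcript length, in TPM, show which of these mRNAs dominate. In ABI2 OE libraries the order was PRKAR1A (68.8 ± 9.34 TPM), PRKACA (66.2 ± 4.45), PDE4A (34.1 ± 8.51), PRKAR2A (18.1 ± 1.57), PDE8A (7.22 ± 0.94), PDE7A (1.98 ± 0.38), PRKACB (0.81 ± 0.20), PRKAR2B (0.78 ± 0.16), PDE4D (0.53 ± 0.02) and PDE4B (0.08 ± 0.02) (SD, n = 3). PRKAR1A and PRKACA overlapped in that group, as did PRKACB and PRKAR2B, and other neighbours did not. In Control libraries it was PRKAR1A (120.1 ± 3.98 TPM), PRKACA (52.3 ± 3.06), PDE4A (22.9 ± 5.30), PRKAR2A (18.2 ± 0.64), PDE8A (17.8 ± 1.91), PDE4D (7.68 ± 0.55), PDE7A (6.02 ± 0.57), PRKACB (3.61 ± 0.31), PRKAR2B (2.45 ± 0.08) and PDE4B (0.23 ± 0.10) (SD, n = 3). There only PRKAR2A and PDE8A overlapped among neighbours. PDE4D was thus above PDE7A, PRKACB and PRKAR2B in Control libraries and below them in ABI2 OE libraries.

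The makeup of the phosphodiesterase and PKA mRNA pools differed with these levels. PDE4A made up 77.9%, 79.9% and 74.0% of the summed TPM of the 5 phosphodiesterases in ABI2 OE libraries, against 46.7%, 40.4% and 37.5% in Control libraries. PDE8A made up 16.7% ± 1.96 in ABI2 OE and 32.8% ± 3.14 in Control libraries, and PDE4D 1.24% ± 0.29 in ABI2 OE and 14.2% ± 1.78 in Control libraries (SD, n = 3 each). The summed level was 49.98, 48.9 and 32.8 TPM in ABI2 OE and 62.1, 49.1 and 52.8 TPM in Control libraries, so the groups overlapped and ABI2 OE replicate 3 was the lowest library. From GC-corrected CPM per annotated transcript length, PDE4A held 62.1% ± 0.60 in ABI2 OE and 49.5% ± 5.05 in Control libraries. On that scale PDE4D held 2.74% ± 0.65 in ABI2 OE and 7.35% ± 1.18 in Control libraries. The length and GC content used for PDE4D were those of 1 transcript of 8232 bases, longer than its reads in Control libraries imply (given below). PDE8A held 26.3% ± 1.46 in ABI2 OE and 30.3% ± 2.59 in Control libraries, and its groups overlapped.

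PRKAR1A was the main regulatory mRNA in both groups, at 78.3% ± 3.65 of the summed TPM of the 3 regulatory members in ABI2 OE and 85.3% ± 0.50 in Control libraries (SD, n = 3 each). PRKACB supplied 1.23% ± 0.38 of catalytic TPM in ABI2 OE and 6.45% ± 0.20 in Control libraries. From GC-corrected CPM per annotated length, the PRKAR1A share turned round, at 80.8% ± 2.20 in ABI2 OE and 77.5% ± 1.03 in Control libraries, with overlapping groups. The PRKACB share on that scale was 2.38% ± 0.29 in ABI2 OE and 2.96% ± 0.22 in Control libraries, a much smaller gap. The ratio of summed regulatory to summed catalytic TPM was 1.49, 1.36 and 1.10 in ABI2 OE libraries against 2.41, 2.79 and 2.37 in Control libraries. Every ABI2 OE library had the lower ratio. With PRKAR1B, a regulatory gene that is no member, in the sum, it was 1.64 ± 0.19 in ABI2 OE and 2.75 ± 0.26 in Control libraries. From GC-corrected CPM per annotated length the order of the groups turned round, at 2.13 ± 0.14 in ABI2 OE and 1.13 ± 0.07 in Control libraries. The direction of the ratio therefore depends on that correction, which would take out a genuine difference too if it ran with GC content.

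**Figure D2:**
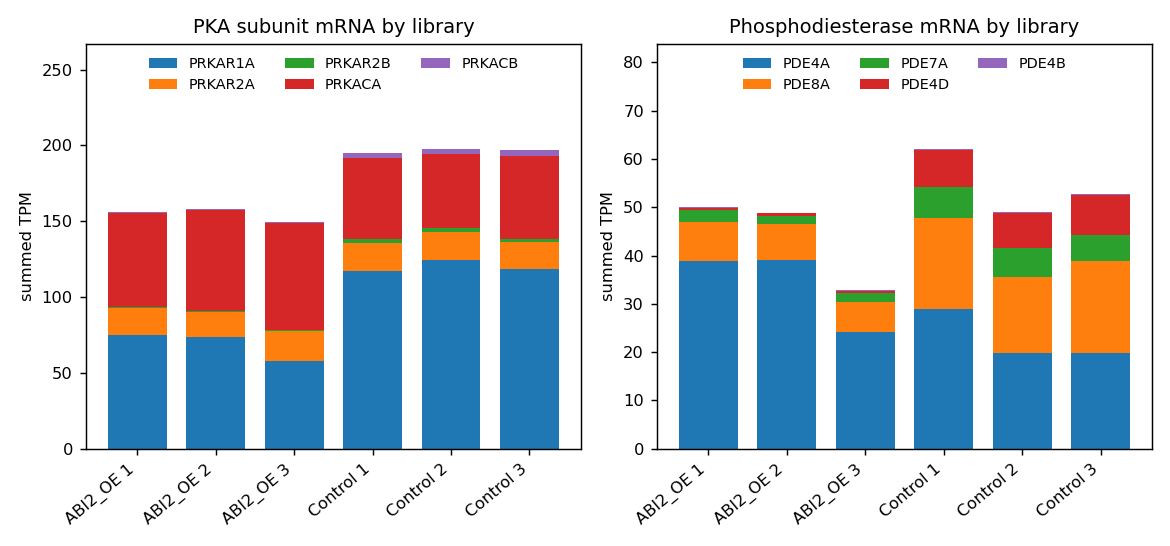
Stacked bars of TPM per library for the PKA subunits (left) and the phosphodiesterases (right), ABI2 OE left of Control. PRKAR1A and PRKACA fill most of the PKA bars, and PDE4A fills 74.0% to 79.9% of the phosphodiesterase bars in ABI2 OE against 37.5% to 46.7% in Control libraries.

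The members' fold changes ran with their GC content. Transcript GC content was 58.8% for PDE4A and 56.5% for PRKACA, the 2 members called higher, and 35.6% to 45.5% for the other 8. Over the 10 members, which share the same 6 libraries, Spearman's rho between GC content and log2 fold change was 0.76 as a description. All tested genes were cut into 10 classes of equal size by GC content. PRKACB (log2 fold change -2.11, class median -1.84), PRKAR2B (-1.51, class median -1.49) and PRKACA (0.51, class median 0.55) lay close to the typical gene of their class. PDE4D (-3.04) was lower than the median of -1.49 in its class, where 86.8% of genes were called lower. It was placed there by the GC content of 1 transcript of 8232 bases, which may not stand for all its isoforms. PRKAR1A (-0.61) belongs to the same class and was above that median, and PRKAR2A (0.12) was above the median of -0.57 in its own class, where 62% were called lower. The part of the GC trend in each member's difference was not tested. In the GC-corrected fit the class of PRKACB still had a median of -0.11, so the trend was not fully removed there. In all 10 members but PRKACA the 3' untranslated region was poorer in GC than the coding part. That of PDE4D was 5626 bases at 34.7% GC beside a coding part at 51.0%, and that of PRKAR1A was 2974 bases at 33.9% beside 47.1%.

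**Figure D3:**
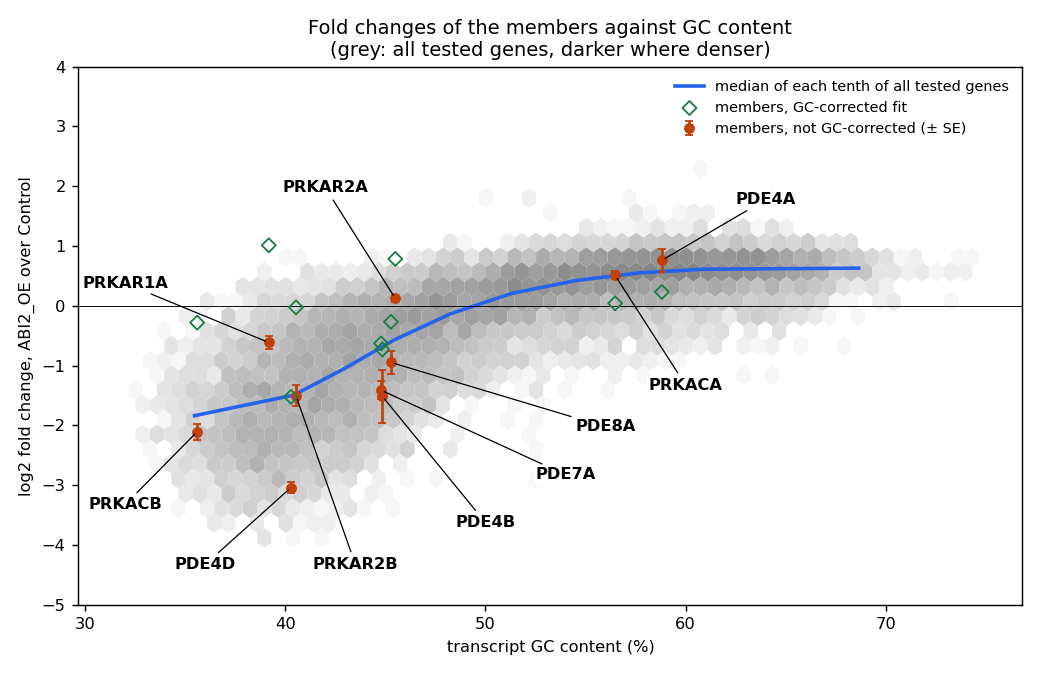
Log2 fold change (ABI2 OE over Control) against transcript GC content in percent, with all tested genes in grey, the median of each GC class as a blue line, members as filled circles with their SE and their GC-corrected values as open diamonds. The axis runs from -5 to 4 and leaves out 11 of the other genes. PDE4D lies below the line at -3.04, and PRKAR1A (-0.61) and PRKAR2A (0.12) lie above it.

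Counts and TPM of the same gene imply the average length of the transcripts to which its reads were assigned. The length was scaled on 436 genes with a single annotated transcript of at least 500 bases and at least 200 counts in every library. For these, 90% of implied lengths fell within 0.996 to 1.002 of the annotated one. Genes with several transcripts or fewer counts, PDE4D among them, were not part of that check. PDE4B reached 4705 bases in Control replicate 1 and 4750 bases in Control replicate 3, above its longest annotated transcript of 4546 bases. PRKAR2B reached 3801 bases in ABI2 OE replicate 3, above its longest of 3745 bases. Smaller excesses occurred in other libraries of both genes and in PDE7A. PDE4D had implied lengths of 8068, 7265 and 7619 bases in ABI2 OE libraries and 4734, 4985 and 4550 bases in Control libraries. Its remaining reads in ABI2 OE libraries were thus assigned to longer transcripts, by 1.61 times, and the groups lay far apart. The 29 annotated PDE4D transcripts have 300 to 8232 bases. Its GC content, GC class and annotated length are those of the longest, while its implied length averaged 4757 bases in Control libraries. The GC-corrected values of PDE4D may therefore not suit the isoforms counted there, which was not tested. Of 13320 genes, 0.548% had a larger ratio, and the median gene had the same length in both groups. PDE4D had a log2 fold change of -3.63 on the log2(TPM + 0.1) scale and of -2.51 on the log2(TPM + 1) scale, against -3.04 from counts, so its size in TPM depends on the pseudocount. These lengths come from 94 to 101 counts per ABI2 OE library and are as reliable as the assignment of reads to isoforms.

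**Figure D4:**
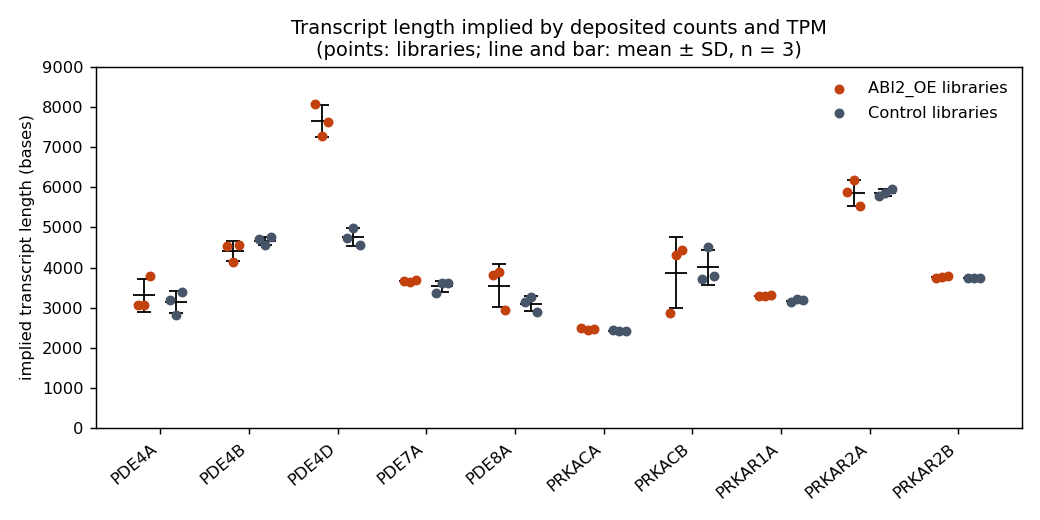
Implied transcript length in bases for each member, with 1 point per library, ABI2 OE left of Control, and the mean ± SD (n = 3). PDE4D stands at 7265 to 8068 bases in ABI2 OE and 4550 to 4985 bases in Control libraries, while PRKAR2A has means of 5863 bases in both groups.

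The other members kept closer lengths. PRKAR2A averaged 5863 ± 328 bases in ABI2 OE and 5863 ± 86.0 in Control libraries, and PRKACA 2484 ± 25.0 and 2432 ± 17.8 bases in ABI2 OE and Control libraries (SD, n = 3 each). PRKAR1A was at 3295, 3291 and 3330 bases in ABI2 OE and 3139, 3219 and 3182 bases in Control libraries, a small shift without overlap. PDE8A was uneven within the ABI2 OE group, at 3824, 3892 and 2938 bases, against 3132, 3274 and 2896 in Control libraries, and the lowest value was that of replicate 3. PRKACB varied from 2858 to 4440 bases in ABI2 OE and from 3714 to 4510 bases in Control libraries, so its groups overlapped.

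The rest of the pathway was read from lists of 90 other genes, 71 of which were tested. In the edgeR quasi-likelihood test over all genes, 27 rose, 30 fell and 14 did not pass, which is 38.0% and 42.3% of those tested, against 35.1% and 38% of all genes. With GC correction 19 of the 71 rose and 15 fell, against 28.6% and 22.6% of all genes in that fit. The same shares of all genes stand beside the GC-corrected counts of each list below. Some lists are also set beside the GC class of their median GC content, although their genes lie in several classes. The 8 tested genes among the other cAMP phosphodiesterases had 6 falls and 1 rise, with a median log2 fold change of -1.50. Of all genes, 38% were called lower and 35.1% higher. In the GC class that holds this list's median GC content of 44.7%, 62% were called lower and 8.03% higher, with a median of -0.57. PDE1C, a calcium-activated enzyme, fell to 1.48 ± 0.19 CPM in ABI2 OE against 4.77 ± 0.78 CPM in Control libraries (SD, n = 3 each, edgeR adjusted p = 0.000133). PDE7B, the relative of PDE7A, fell with a log2 fold change of -1.92, and PDE10A with -1.26. PDE2A, which is stimulated by cGMP, rose to 45.2 ± 0.91 CPM in ABI2 OE against 31.97 ± 1.15 CPM in Control libraries (SD, n = 3 each). With GC correction no gene of this list rose and 4 fell, among them PDE1C (-1.07), PDE7B (-0.84) and PDE10A (-1.24), while PDE2A was at -0.03 and was not called.

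PKA genes outside the members and the inhibitor peptides also moved both ways. PRKAR1B, a second type I regulatory subunit, rose to 24.4 ± 1.55 CPM in ABI2 OE against 13.9 ± 1.17 CPM in Control libraries, and PRKX, a kinase related to the catalytic subunits, fell to 14.6 ± 0.48 CPM against 18.9 ± 1.10 CPM (SD, n = 3 each). PKIA and PKIB, which encode inhibitors of the catalytic subunit, fell with log2 fold changes of -0.90 and -0.39, and the third, PKIG, rose with 0.51. With GC correction, PKIA and PKIB turned to rises of 0.77 and 0.74. PRKAR1B, PRKX and PKIG were then not called.

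The A-kinase anchoring proteins had 9 falls and 4 rises among 16 tested, and 3 genes did not pass. Lower genes were thus 56.25% of the list, against 38% of all genes. In the GC class that holds this list's median GC content of 46.3%, 62% of genes were called lower and 8.03% higher. The median log2 fold change was -1.06 for the list and -0.57 for that class. Tested genes of this list ran from 35.5% GC (AKAP7) to 60.4% (AKAP17A), so that class does not stand for all of them. AKAP12, the scaffold also called gravin, fell to 5.38 ± 0.77 CPM in ABI2 OE against 22.4 ± 2.89 CPM in Control libraries, and AKAP11 to 3.33 ± 0.22 against 21.4 ± 3.11 CPM (SD, n = 3 each). The centrosomal and Golgi anchor AKAP9 fell to 0.45 ± 0.21 CPM against 4.19 ± 0.55 CPM. EZR, the membrane to actin linker ezrin, rose to 365 ± 8.38 CPM against 277 ± 4.64 CPM. After GC correction these 4 kept their direction and call, at -1.55, -0.92, -1.46 and 0.26, and in the whole list 3 rose and 5 fell. WASF1, chosen after its values were seen because its protein WAVE1 both anchors PKA and sits in the complex that holds ABI2, had a log2 fold change of -0.11 ± 0.06 and did not pass (edgeR adjusted p = 0.134), but rose in the GC-corrected fit (0.39).

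Upstream, 4 of 5 tested adenylyl cyclases rose and 1 fell, against 35.1% of all genes higher and 70.0% higher in the GC class that holds this list's median GC content of 56.8%. With GC correction 1 rose, 1 fell and 3 did not pass. ADCY3 rose to 48.4 ± 4.43 CPM in ABI2 OE against 28.0 ± 0.87 CPM in Control libraries, ADCY7 to 121.8 ± 5.87 against 96.3 ± 7.68 CPM and ADCY6 to 64.1 ± 0.83 against 50.9 ± 4.54 CPM (SD, n = 3 each). ADCY5, at under 1 CPM in every library, fell with a log2 fold change of -1.43. With GC correction ADCY3 (0.31) and ADCY5 (-1.99) were still called, and ADCY6 and ADCY7 were not. GNAS, the gene of the stimulatory alpha subunit, rose to 1141 ± 27.8 CPM against 827 ± 3.31 CPM, and the inhibitory subunit gene GNAI2 to 446 ± 13.2 against 294 ± 7.99 CPM, while GNAI1 and GNAI3 fell with log2 fold changes of -0.98 and -1.29. In the GC-corrected fit GNAI1 turned to a rise of 0.77, and GNAS, GNAI2 and GNAI3 were not called. Of 6 tested Gs-coupled receptors, 3 rose and none fell, against 35.1% of all genes higher and 38% lower. In the GC class that holds this list's median GC content of 56.5%, 70.0% were called higher and 2.78% lower. The prostaglandin E2 receptor gene PTGER4 rose to 13.3 ± 0.80 CPM in ABI2 OE against 7.75 ± 0.39 CPM in Control libraries, and the adenosine receptor gene ADORA2B to 232 ± 15.2 against 175 ± 3.74 CPM (SD, n = 3 each). PTGER4 kept its rise after GC correction, with a log2 fold change of 0.60, and ADORA2B did not (-0.02). ADRB1 did not pass, with a log2 fold change of -0.33 ± 0.19, and fell in the GC-corrected fit (-0.83).

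Downstream of cAMP, the small GTPases RAP1A and RAP1B, which the exchange factors EPAC1 and EPAC2 activate, fell with log2 fold changes of -1.05 and -1.33, and turned to rises of 0.67 and 0.39 after GC correction. The EPAC2 gene RAPGEF4 fell (-1.74) and the EPAC1 gene RAPGEF3 rose (0.47). With GC correction RAPGEF4 still fell (-0.83), and RAPGEF3 was at -0.07 and was not called. Among 8 CREB factors and coactivators, 3 rose and 3 fell, against 35.1% of all genes higher and 38% lower. In the GC class that holds this list's median GC content of 53.9%, 59.8% were called higher and 6.08% lower. Genes of this list ran from 34.2% GC (ATF1) to 61.9% (CRTC1), so that class does not stand for all of them. The coactivators CRTC1, CRTC2 and CRTC3 had log2 fold changes of 0.61, 0.54 and 0.46, and ATF1, a relative of CREB, fell to 6.64 ± 0.76 CPM in ABI2 OE against 17.4 ± 1.77 CPM in Control libraries (SD, n = 3 each). After GC correction the 3 coactivators were within 0.03 of 0 and not called, and ATF1 turned to a rise of 0.47.

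Genes that CREB is known to induce gave 7 rises and 3 falls among 14 tested, with a median log2 fold change of 0.41. Of all genes, 35.1% were called higher and 38% lower. In the GC class that holds this list's median GC content of 51.7%, 43.2% were called higher and 13.8% lower. The median of that class was 0.21. Tested genes of this list ran from 40.5% GC (PPARGC1A) to 62.7% (PER1), so that class does not stand for all of them. EGR1, an immediate early transcription factor, rose to 15.5 ± 1.20 CPM in ABI2 OE against 6.88 ± 0.84 CPM in Control libraries, and the phosphatase DUSP1 to 95.7 ± 4.43 against 56.8 ± 1.12 CPM (SD, n = 3 each). PPARGC1A, a coactivator of mitochondrial genes, fell with a log2 fold change of -2.72, and RGS2, a regulator of G protein signalling, to 1.58 ± 0.24 against 5.62 ± 0.95 CPM. All 4 kept their direction and call with GC correction, at 0.75, 0.34, -1.22 and -0.46, and in the whole list 5 rose and 2 fell. Most of these genes respond to other signals as well. Among the pathway genes named here, PRKAR1B, PKIG, ADCY3, ADCY7, GNAI3, PTGER4, RAPGEF3 and RAP1A overlap another gene of the table, so their counts are uncertain to that extent. PRKX has a near-identical copy elsewhere in the genome, which leaves its count uncertain as well.

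**Figure D5:**
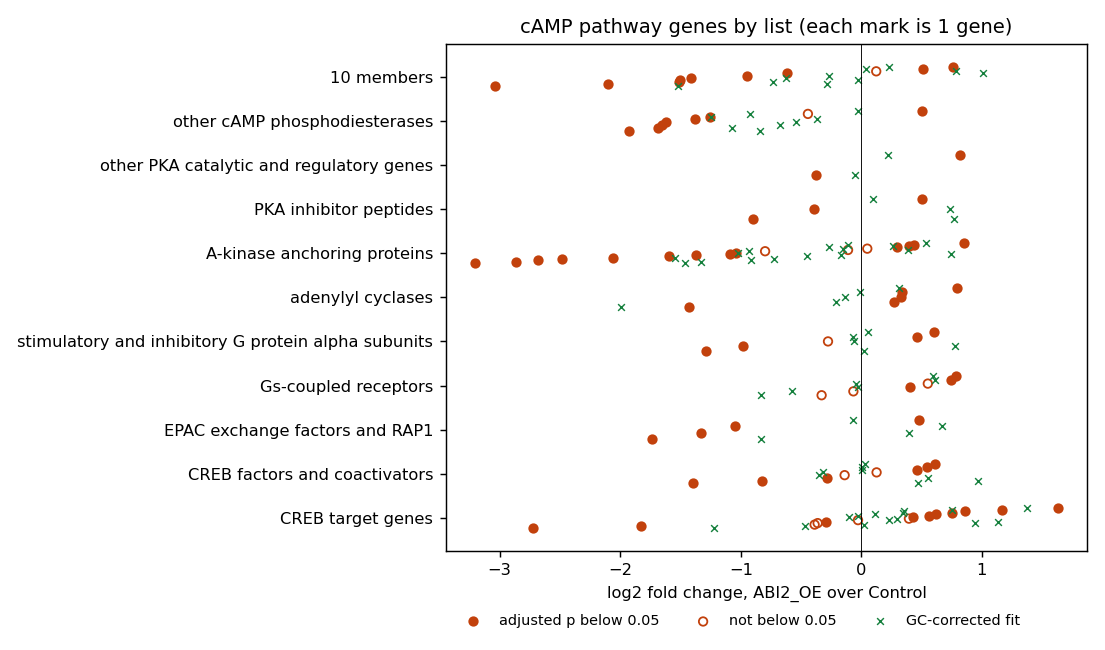
Log2 fold change (ABI2 OE over Control) of each member and each tested pathway gene by list, filled where the edgeR adjusted p was below 0.05, open where it was not, with the GC-corrected value as a cross. Most other phosphodiesterases lie below 0 and the called Gs-coupled receptors above it, and the crosses lie nearer to 0 for many genes.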

How the data were processed

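RNA of 3 ABI2 OE and 3 Control samples of MDA-MB-231 was sequenced, with groups and replicate numbers taken from the sample titles. Per the file headers, the authors deposited for each library a read count, a TPM and an FPKM value per gene. The deposited counts are raw whole numbers. The deposited TPM values served for levels and shares, and the deposited FPKM values enter no comparison. The submitters' processing notes name StringTie 1.3.3b, HISAT2 2.1.0, Trimmomatic and FastQC 0.11.2, with the build GRCh38. Not given in the sources used here are the annotation, how reads were counted, and whether strand was used. Of 20261 rows, 1 that broke off within a value was left out.

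The group comparison ran in R 4.3.3 with edgeR 4.0.16 (a minimum count of 10 in filterByExpr, TMM scaling, robust quasi-likelihood F test, two-sided, Benjamini-Hochberg adjustment over all genes tested). All 10 members passed the filter. CPM are TMM-scaled, and SE is the log2 fold change over the square root of F. GC content and length came from the GENCODE 29 transcript with the longest coding sequence (13314 of the tested genes). The GC correction used a natural spline with 5 degrees of freedom per library as offsets. Alternatives used DESeq2 1.42.0 and limma 3.58.1. The fits were also run on data simulated with no GC trend or with a straight-line one. The trend in the real data levelled off at high GC content, so that run cannot show how well the GC correction suits it. The members and pathway lists were chosen with earlier results of these data known. Named pathway genes are the up to 4 with the smallest p in each list, and PDE4C, WASF1 and AKAP2 were added after their values were seen. The values of 1 gene that this rule names are not reported here. Same-numbered replicates did not deviate together (r of 0.0185 to 0.0614), so they were not treated as pairs.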

Additional observations from a re-analysis of the deposited data

How the results depend on the processing

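The 7 lower and 2 higher members were called under RLE scaling, library size alone, no filter, DESeq2 and the replicate block, and PDE4D kept log2 fold changes of -3.05 to -3.02 when single libraries were left out. Leaving out single libraries gave 6 to 7 lower and 2 higher members, since PDE4B lost its call without ABI2 OE replicate 1 or Control replicate 2. With limma on log2(TPM + 1) or log2(TPM + 0.1), 1 member was higher, because PDE4A lost its call, and PDE4B was below the TPM minimum. The corrections for GC content changed most. Lower members came to 2 with GC correction, 2 with GC and length correction and 2 with the replicate block and GC correction together. Genes called lower across the table numbered 5057 without correction and 3009, 2939 and 2748 under these settings, and pathway genes called lower 30 without and 15, 14 and 12 with them. PRKAR1A turned from a log2 fold change of -0.61 to 1.01, 1.03 and 1.01, and PRKACA from 0.51 to -0.0064 with GC and length correction. The regulatory to catalytic difference (ABI2 OE minus Control) was -1.21 in TPM, -0.99 from CPM per annotated length and 1.005 from GC-corrected CPM, and the PDE4A share differed by 35.7 percentage points in TPM and 12.6 from GC-corrected CPM. The cause was not tested. Leaving out single libraries gave ratios differing by -1.30 to -1.08, PDE4A shares by 33.7 to 38.3 points and a PDE4D implied length ratio of 1.56 to 1.65. With the replicate number as a block, 4548 genes rose and 4929 fell, against 4680 and 5057 without it. The shared numbers are not known to pair the samples, and not every library correlated best with its own number. Depth limits PDE4B, with 6 to 36 counts per library.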

Other observations

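AKAP2, an anchoring protein gene chosen after its values were seen, shares its locus with the read-through gene PALM2-AKAP2. AKAP2 had 2567, 3422 and 7133 counts in ABI2 OE libraries and 10397, 4044 and 10030 counts in Control libraries. PALM2-AKAP2 had 970, 74 and 26 counts in ABI2 OE and 58, 1268 and 51 counts in Control libraries. The division of reads between the genes thus varied within both groups, and AKAP2 did not pass (log2 fold change -0.80 ± 0.51).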
